A study of Mus musculus with 32 samples.

Results

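The stress and social neuropeptide genes described here were taken from the count files by name: Crh, Crhbp and Crhr1 of the corticotropin-releasing factor (CRF) system, Adcyap1 and Adcyap1r1 of the PACAP system, the opioid precursor Pdyn, the tachykinin precursor Tac2 and the oxytocin receptor Oxtr. These are 8 of the 24062 genes counted. RNA came from the cortex of adult male S100a10 bacTRAP mice, Tg(S100a10-EGFP/Rpl10a)ES691Htz, in which S100a10 regulatory elements drive a ribosomal protein L10a fused to EGFP. The TRAP libraries hold RNA bound to tagged ribosomes that were pulled down with anti-GFP antibodies, and the input libraries hold RNA of the whole cortical homogenate. All 4 groups carry the transgene, and the labels name layer 5a S100a10 neurons also for the input, which is whole cortex. Gh mice were group housed and drank vehicle, and Sh mice were single housed from weaning and drank vehicle. Sh + Flx mice were single housed and drank fluoxetine, a selective serotonin reuptake inhibitor, at 0.167 g/L for 21 days. Sh + Flx anxious mice had the same housing and drug and were classed as anxious in the open field, so that the last 2 groups were separated by behavior and not by a treatment. Each library pooled the cortices of 3 mice, with the hippocampus and striatum removed, and each group has 4 input and 4 TRAP libraries.

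CRF is released from local and long-range neurons during stress and acts through the G protein-coupled receptors CRF1 (Crhr1) and CRF2 (Crhr2), while the secreted CRF-binding protein (Crhbp) holds CRF away from them. PACAP (Adcyap1) signals through the PAC1 receptor (Adcyap1r1) and the shared VPAC receptors (Vipr1 and Vipr2), mainly by raising cAMP. In cortex, Crh, Crhbp, Tac2 and Pdyn are known mostly from classes of GABAergic interneurons, the CRF1 receptor is known also from pyramidal cells, and PAC1 is found on neurons and glia.

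The input libraries held 19265435 to 34515281 counts in genes and the TRAP libraries 9776244 to 64788703. Gh TRAP 2 and 3 differed by less than other replicates do, with a mean chi-square of 1.13 per gene over 14157 genes, and were summed to 1 sample, so that Gh TRAP has n = 3 and the other groups n = 4. Replicates 1 and 4 of each input group resembled each other, as did 2 and 3. The study's methods call the 4 pools of a group biological replicates, and p-values measure the spread between these libraries. Whether the libraries that resemble each other come from independent pools was not tested. If they do not, the p-values are too small. S100a10, the gene behind the tag, lay at 5.76 to 11.01 CPM (counts scaled to a common library size, with TMM factors) in input and at 11.9 to 68.4 CPM in TRAP. The low end was Sh TRAP 2 and 3, at 19.1 and 11.9 CPM. These libraries held 23790 and 43491 CPM of Malat1, against 2864 to 7254 CPM in the other TRAP samples and 27115 to 49239 CPM in input. They also had 50.3% and 58.6% of their reads outside genes and stood apart from the other TRAP libraries. Without them Sh TRAP consists of libraries 1 and 4, which resembled each other more than any other TRAP pair of one group apart from the summed one, with a mean chi-square of 2.17 per gene against 15.1 or more, so that values without Sh TRAP 2 and 3 rest on little spread within Sh. Layer 5 markers as a group did not lie higher in TRAP, as the summed level of 7 intratelencephalic layer 5 markers was 375 to 621 CPM in TRAP and 529 to 640 CPM in input, and 11 of 11 meningeal fibroblast markers were higher in TRAP than in input in every group. The part of other cells' RNA in the TRAP values of the members was not tested.

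The 3 members that passed a test between groups were Crhbp, Adcyap1r1 and Oxtr, and their promoters are shown for that reason. Crhbp lies on the minus strand of chromosome 13 (95431376 to 95444831), Adcyap1r1 on the plus strand of chromosome 6 (55451501 to 55501455) and Oxtr on the minus strand of chromosome 6 (112473683 to 112491035). The sequences are RefSeq promoters of the GRCm38.p6 build, from 250 bases before to 50 bases after an annotated start, read 5′ to 3′ on the gene's strand. They lie at chr13:95444782-95445081 (Crhbp), chr6:55451728-55452027 (Adcyap1r1) and chr6:112489776-112490075 (Oxtr). The Crhbp window spans the outer 5′ end of the gene. Those of Adcyap1r1 and Oxtr lie wholly inside the gene spans given above, so they do not cover the bases before the outer 5′ end. Capitals mark the core of the cAMP response element, TGACG or its reverse complement CGTCA, searched on both strands.
Crhbp: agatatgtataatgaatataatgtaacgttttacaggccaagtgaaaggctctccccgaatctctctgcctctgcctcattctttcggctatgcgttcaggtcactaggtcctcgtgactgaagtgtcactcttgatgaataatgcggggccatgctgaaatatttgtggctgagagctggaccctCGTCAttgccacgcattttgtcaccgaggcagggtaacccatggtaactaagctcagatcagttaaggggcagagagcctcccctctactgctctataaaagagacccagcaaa
Adcyap1r1: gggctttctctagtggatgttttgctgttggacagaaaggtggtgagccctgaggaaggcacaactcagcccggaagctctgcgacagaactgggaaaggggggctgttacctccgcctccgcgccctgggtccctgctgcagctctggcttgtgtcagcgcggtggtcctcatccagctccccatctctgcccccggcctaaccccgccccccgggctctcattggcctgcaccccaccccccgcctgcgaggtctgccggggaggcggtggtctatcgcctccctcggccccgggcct
Oxtr: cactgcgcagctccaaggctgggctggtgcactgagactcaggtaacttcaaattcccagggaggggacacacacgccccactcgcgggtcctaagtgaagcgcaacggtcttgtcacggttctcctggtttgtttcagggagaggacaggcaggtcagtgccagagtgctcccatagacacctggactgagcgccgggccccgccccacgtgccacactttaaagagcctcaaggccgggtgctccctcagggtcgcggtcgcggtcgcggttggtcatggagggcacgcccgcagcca
The Crhbp promoter held 1 core, which starts 64 bases before the start of transcription. The Adcyap1r1 and Oxtr sequences printed here held none, and the bases before the outer 5′ end of these genes were not searched. The core was in 20.8% of all 32851 promoters and the full element TGACGTCA, which contains it, in 1.79%, and none of the members' promoters held the full element. GC content was 48% for Crhbp, 67.3% for Adcyap1r1 and 63.7% for Oxtr. A total of 7 of the 8 members had a promoter in the table, Crh being the one without.

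Per kilobase of exon, the order of the members in input was Adcyap1r1 at 16.3 CPM per kb, Crhbp at 10.3, Pdyn at 7.05, Tac2 at 3.70, Oxtr at 3.69, Adcyap1 at 1.90, Crh at 1.203 and Crhr1 at 0.331 CPM per kb, each the mean over the 4 group means. Of the neighbours in this order, only Oxtr and Adcyap1, and Crh and Crhr1, had ranges over the 16 input libraries that did not overlap. In TRAP the order was the same except that Oxtr (2.15 CPM per kb) and Tac2 (2.06 CPM per kb) changed places. All 8 members passed the filter on low counts in every fit. Crh rested on 8 to 110 counts a library and Tac2 on 8 to 163, against 659 to 6658 for Adcyap1r1.

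**Figure D1:**
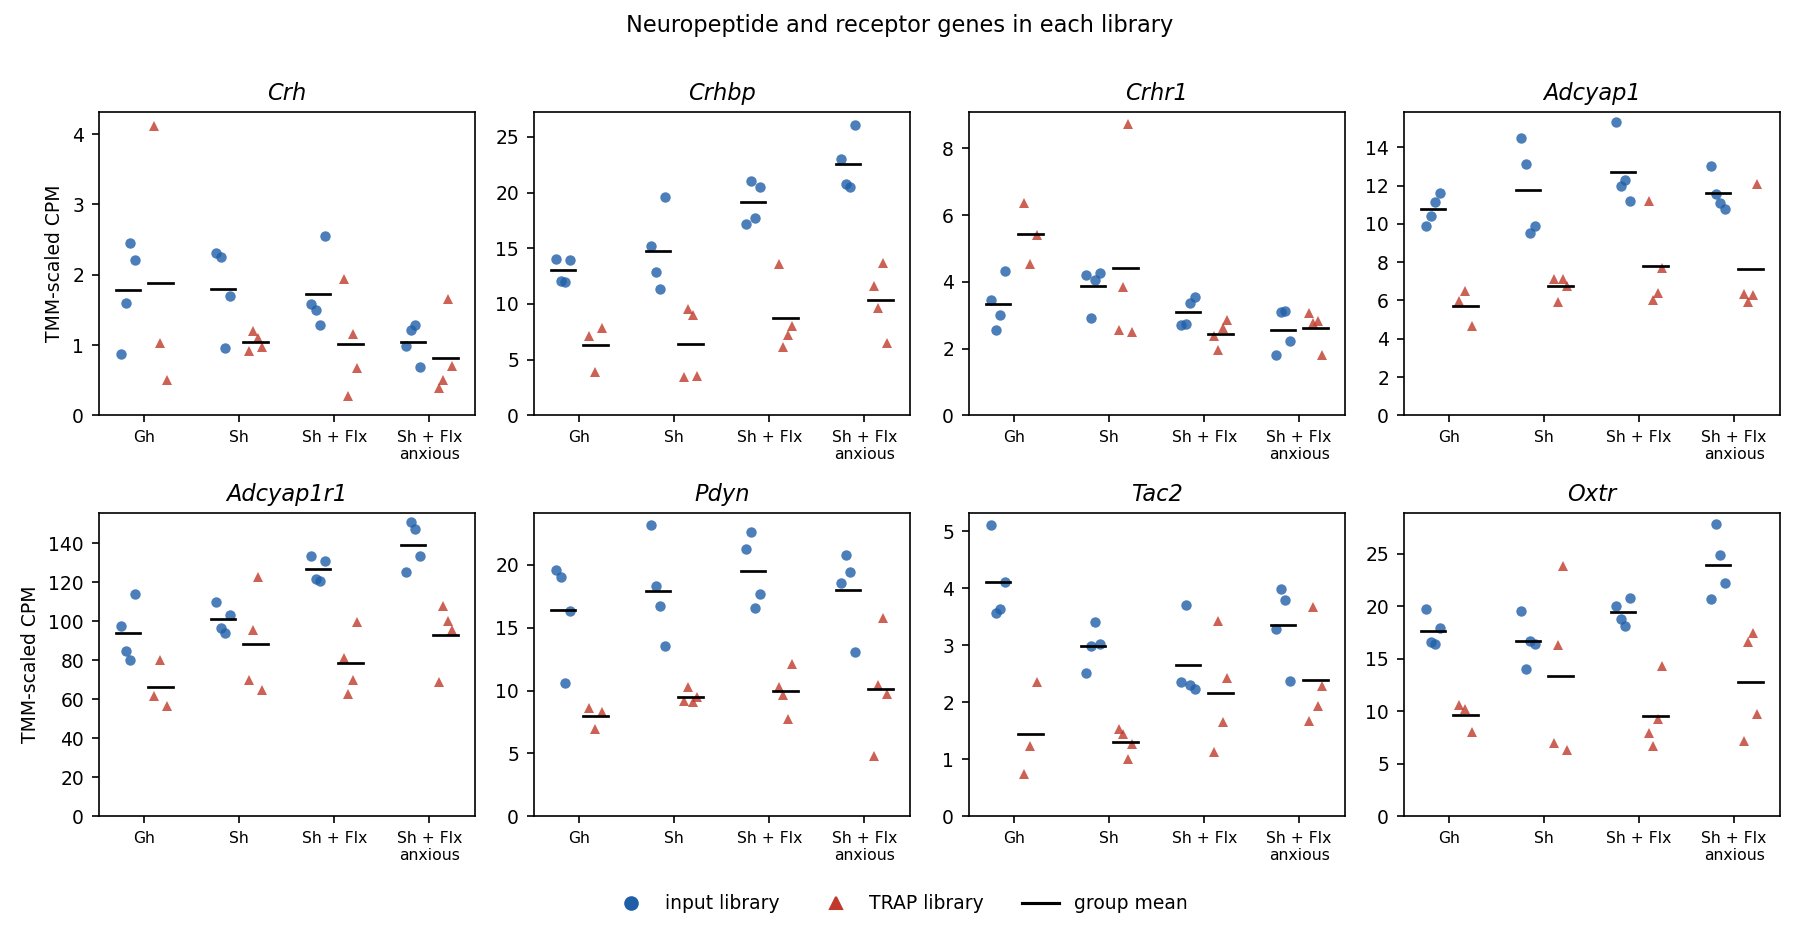
Level of each of the 8 genes (TMM-scaled CPM, axes from 0) in every input library (circles) and TRAP library (triangles) of the 4 groups, with group means as bars. Crhbp in input is at 11.98 to 14.0 CPM in Gh and at 20.5 to 26.1 CPM in Sh + Flx anxious, and most genes sit lower in TRAP than in input.

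Crhbp, which codes for the secreted protein that binds CRF, showed the largest rise of the 8 in input. It measured 14.0, 12.1, 11.98 and 14.0 CPM in Gh input libraries 1 to 4, and 15.2, 12.9, 11.4 and 19.6 CPM in Sh. It measured 17.2, 21.1, 17.7 and 20.5 CPM in Sh + Flx. It measured 23.0, 20.8, 20.5 and 26.1 CPM in Sh + Flx anxious. All 8 libraries from fluoxetine-treated mice lay above all 4 Gh libraries, and those of the anxious mice also above every Sh library. In edgeR's quasi-likelihood test with Benjamini-Hochberg adjustment over all genes, Crhbp was higher than in Gh by 0.55 ± 0.13 (log2, SE) in Sh + Flx (adjusted p = 0.0109) and by 0.80 ± 0.13 in Sh + Flx anxious (adjusted p = 0.000109). Against Sh it was higher by 0.62 ± 0.13 in Sh + Flx anxious (adjusted p = 0.00283), and in Sh + Flx the difference of 0.37 ± 0.13 did not pass (adjusted p = 0.17). The last group and Sh + Flx differed by 0.24, with a 95% interval of -0.02 to 0.51. With replicates 1 and 4, and 2 and 3, summed to 2 samples a group, the rise over Gh in the anxious group kept its call (adjusted p = 0.0103), while the adjusted p became 0.135 for Sh + Flx against Gh and 0.0543 for Sh + Flx anxious against Sh.

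In TRAP, Crhbp was lower than in input in each group. It measured 7.12, 3.84 and 7.86 CPM in Gh TRAP (1, 2 and 3 summed, 4) and 3.44, 9.58, 8.99 and 3.56 CPM in Sh. It measured 13.6, 6.10, 7.21 and 8.03 CPM in Sh + Flx and 11.6, 9.66, 13.7 and 6.5 CPM in Sh + Flx anxious. The TRAP and input libraries of a group did not overlap for Crhbp in any group, and its log2 fold changes of TRAP over input were -1.07 ± 0.31 in Gh, -1.23 ± 0.29 in Sh, -1.14 ± 0.28 in Sh + Flx and -1.12 ± 0.28 in Sh + Flx anxious (SE, edgeR, adjusted p from 0.000887 to 0.0066). Without Sh TRAP 2 and 3 the value in Sh was -2.02 ± 0.31. Between groups the TRAP libraries overlapped and no test passed, although Sh + Flx anxious measured 0.73 ± 0.41 above Gh (log2, edgeR, adjusted p = 0.73). Without Sh TRAP 2 and 3, where Crhbp was higher than in the other Sh TRAP libraries, Sh + Flx anxious was above Sh by 1.58 ± 0.38 (log2, edgeR, adjusted p = 0.0252), against an Sh arm of the 2 similar libraries 1 and 4. With them that difference was 0.71 ± 0.38 (adjusted p = 0.229).

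Crh, the ligand, was scarce in both fractions. It measured 0.876, 1.59, 2.45 and 2.21 CPM in Gh input, 2.31, 2.26, 0.951 and 1.70 CPM in Sh, 1.59, 1.496, 1.29 and 2.55 CPM in Sh + Flx and 0.982, 1.21, 1.28 and 0.684 CPM in Sh + Flx anxious. The 4 libraries of the anxious group lay below all 4 of Sh + Flx, and the log2 fold change was -0.74 ± 0.36 (edgeR, adjusted p = 0.627), while 2.57% of all genes were lower without overlap in that comparison. In TRAP it ranged from 0.279 CPM (Sh + Flx 2) to 4.12 CPM (Gh 1), and the other 13 libraries lay between 0.391 and 1.94 CPM. TRAP against input gave log2 fold changes of 0.00 ± 0.70 in Gh, -0.79 ± 0.56 in Sh, -0.78 ± 0.55 in Sh + Flx and -0.32 ± 0.55 in Sh + Flx anxious (SE, edgeR, adjusted p from 0.24 to 0.9998), and without Gh TRAP 1 the value in Gh was -1.21. Crh shares 218 exon bases with Gm42189 on the opposite strand, and the library kit does not mark strand, so that reads of the 2 genes cannot be told apart there.

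Crhr1, the CRF1 receptor, was the one member that lay above input in TRAP without overlap, in Gh. It measured 3.44, 2.57, 2.996 and 4.34 CPM in Gh input and 6.37, 4.54 and 5.40 CPM in Gh TRAP. The groups did not overlap, with a log2 fold change of 0.70 ± 0.33 that missed the threshold (edgeR, adjusted p = 0.0859), in a comparison where 22.6% of all genes were higher in TRAP without overlap. Without Sh TRAP 2 and 3, it passed (0.77 ± 0.26, edgeR, adjusted p = 0.0138). These libraries enter the Gh comparison only through the shared fit, and the Gh counts were the same in both settings. In Sh it measured 4.202, 2.91, 4.06 and 4.28 CPM in input and 2.55, 3.83, 8.74 and 2.49 CPM in TRAP, and the fold change turned from 0.19 ± 0.31 to -0.56 ± 0.31 (log2) without Sh TRAP 2 and 3. In Sh + Flx it measured 2.71, 2.73, 3.35 and 3.53 CPM in input and 2.37, 1.95, 2.61 and 2.85 CPM in TRAP. In Sh + Flx anxious it measured 1.81, 3.08, 3.11 and 2.23 CPM in input and 3.07, 2.78, 2.82 and 1.80 CPM in TRAP. Within these groups TRAP and input overlapped, with log2 fold changes of -0.33 ± 0.31 and 0.03 ± 0.31 (SE, adjusted p = 0.387 and 0.936). All 8 TRAP libraries from fluoxetine-treated mice lay below the 3 Gh TRAP samples, and the log2 fold changes against Gh were -1.15 ± 0.41 in Sh + Flx and -1.05 ± 0.41 in Sh + Flx anxious. Neither passed (edgeR, unadjusted p = 0.0112 and 0.0191, adjusted p = 0.647 and 0.523), and 4.67% and 6.05% of all genes were lower without overlap in these 2 comparisons.

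Adcyap1r1, the PAC1 receptor, was higher in input in both fluoxetine groups. It measured 97.6, 84.9, 80.0 and 114 CPM in Gh and 109.8, 96.4, 94.1 and 103 CPM in Sh. It measured 133, 122, 121 and 131 CPM in Sh + Flx and 125, 151, 147 and 133 CPM in Sh + Flx anxious. All 8 libraries of the fluoxetine groups lay above all 8 of the vehicle groups. Adcyap1r1 was higher than in Gh by 0.42 ± 0.09 in Sh + Flx (log2, SE, edgeR, adjusted p = 0.00242) and by 0.56 ± 0.09 in Sh + Flx anxious (adjusted p = 3.67e-05). It was higher than in Sh by 0.32 ± 0.09 in Sh + Flx (adjusted p = 0.0397) and by 0.46 ± 0.09 in Sh + Flx anxious (adjusted p = 0.000668). Both results of the anxious group passed also with replicates 1 and 4, and 2 and 3, summed (adjusted p = 0.0103 against Gh and 0.0478 against Sh). The results of Sh + Flx did not (adjusted p = 0.0942 against Gh and 0.392 against Sh), and the latter call was lost on leaving out Sh input 2, 3 or 4 or any 1 of the 4 Sh + Flx input libraries (adjusted p from 0.0635 to 0.159). Sh + Flx anxious and Sh + Flx differed by 0.14, with a 95% interval of -0.04 to 0.31.

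In TRAP, Adcyap1r1 measured 61.7, 80.1 and 56.5 CPM in Gh (1, 2 and 3 summed, 4), 69.8, 95.8, 123 and 64.7 CPM in Sh, 81.4, 62.8, 69.9 and 99.6 CPM in Sh + Flx and 68.8, 108, 100.04 and 95.8 CPM in Sh + Flx anxious. The groups overlapped, and no comparison in TRAP passed. The difference from Gh in the anxious group was 0.49 ± 0.23 in TRAP (log2, edgeR, adjusted p = 0.649), and the TRAP change minus the input change was -0.07 with a 95% interval of -0.56 to 0.42. Against input, Adcyap1r1 was lower in TRAP by a log2 fold change of -0.51 ± 0.18 in Gh, -0.69 ± 0.16 in Sh + Flx and -0.58 ± 0.16 in Sh + Flx anxious (SE, edgeR, adjusted p = 0.0225, 0.000734 and 0.00391). In Sh it was -0.19 ± 0.16 (adjusted p = 0.371), and -0.53 ± 0.16 (adjusted p = 0.0061) without Sh TRAP 2 and 3. The call in Gh was lost without Gh input 4, Gh TRAP 1 or Gh TRAP 4 (adjusted p = 0.0903, 0.0794 and 0.123).

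For Adcyap1, which codes for PACAP, no difference between groups passed the test in either fraction. It measured 9.89, 10.4, 11.1 and 11.6 CPM in Gh input, 14.5, 13.1, 9.51 and 9.87 CPM in Sh, 15.3, 11.97, 12.3 and 11.2 CPM in Sh + Flx and 13, 11.6, 11.1 and 10.8 CPM in Sh + Flx anxious. In TRAP it measured 5.99, 6.48 and 4.65 CPM in Gh, 7.10, 5.90, 7.13 and 6.78 CPM in Sh, 11.2, 5.997, 6.37 and 7.67 CPM in Sh + Flx and 6.33, 5.91, 6.30 and 12.1 CPM in Sh + Flx anxious. It was lower in TRAP than in input in every group, with log2 fold changes of -0.92 ± 0.23 in Gh, -0.80 ± 0.21 in Sh, -0.70 ± 0.21 in Sh + Flx and -0.60 ± 0.21 in Sh + Flx anxious (SE, edgeR, adjusted p from 0.00178 to 0.0171). The ranges of TRAP and input did not overlap in Gh and Sh. In the anxious group the call was lost without input 1 or without TRAP 1, 2 or 3 (adjusted p from 0.0504 to 0.0665). Adcyap1 shares 32 exon bases with Gm32465 on the opposite strand.

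Oxtr, the receptor for the peptide that is known for social behavior, rose in input in the anxious group. It measured 19.8, 16.6, 16.5 and 17.9 CPM in Gh and 19.5, 14.1, 16.7 and 16.4 CPM in Sh. It measured 20.0, 18.8, 18.1 and 20.8 CPM in Sh + Flx and 20.7, 27.8, 24.9 and 22.2 CPM in Sh + Flx anxious. All 4 libraries of the anxious group lay above all 8 of the vehicle groups, and 1 of them lay below the highest Sh + Flx library. Oxtr was higher in Sh + Flx anxious than in Gh by 0.43 ± 0.11 and than in Sh by 0.51 ± 0.11 (log2, SE, edgeR, adjusted p = 0.00895 and 0.00304). Between the 2 fluoxetine groups the difference was 0.30 ± 0.11 (unadjusted p = 0.0113, adjusted p = 0.414). With replicates 1 and 4, and 2 and 3, summed, the adjusted p became 0.103 against Gh and 0.0755 against Sh, and without Sh + Flx anxious input 2 it was 0.0532 against Gh.

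In TRAP, Oxtr measured 10.6, 10.2 and 7.999 CPM in Gh, 6.99, 16.3, 23.8 and 6.34 CPM in Sh, 7.92, 6.73, 9.24 and 14.3 CPM in Sh + Flx and 7.17, 16.6, 17.5 and 9.72 CPM in Sh + Flx anxious. The 2 high values of Sh are from the libraries that stand apart. Oxtr was lower in TRAP than in input by a log2 fold change of -0.89 ± 0.32 in Gh, -1.02 ± 0.29 in Sh + Flx and -0.91 ± 0.29 in Sh + Flx anxious (SE, edgeR, adjusted p = 0.0258, 0.00388 and 0.00927). In Sh it was -0.33 ± 0.29 (adjusted p = 0.398) with Sh TRAP 2 and 3, and -1.27 ± 0.27 (adjusted p = 0.000198) without them. The call in Gh was lost without Gh input 1 or Gh TRAP 4 (adjusted p = 0.0566 and 0.11).

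Pdyn, the precursor of the dynorphins, which act mainly on the kappa opioid receptor, stayed within overlapping ranges in input. It measured 19.6, 19.1, 10.6 and 16.3 CPM in Gh, 23.2, 18.3, 16.7 and 13.5 CPM in Sh, 21.2, 22.6, 16.6 and 17.7 CPM in Sh + Flx and 18.6, 20.8, 19.4 and 13.1 CPM in Sh + Flx anxious. In TRAP it measured 8.62, 6.95 and 8.27 CPM in Gh, 9.15, 10.3, 9.07 and 9.51 CPM in Sh, 10.3, 9.62, 7.77 and 12.1 CPM in Sh + Flx and 4.77, 10.4, 15.7 and 9.68 CPM in Sh + Flx anxious. The 4 Sh TRAP libraries lay above the 3 of Gh, by 0.26 ± 0.30 (log2, edgeR, adjusted p = 0.686), where 6.46% of all genes were higher without overlap. Without Sh TRAP 2 and 3 the difference was 0.22 ± 0.34. Pdyn was lower in TRAP than in input in every group, with log2 fold changes of -1.05 ± 0.26 in Gh, -0.92 ± 0.24 in Sh, -0.97 ± 0.24 in Sh + Flx and -0.82 ± 0.23 in Sh + Flx anxious (SE, edgeR, adjusted p from 0.000837 to 0.00431).

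Tac2, the precursor of neurokinin B, was the member lowest in TRAP relative to input in the Gh group. It measured 5.10, 3.57, 3.63 and 4.10 CPM in Gh input, 2.51, 2.99, 3.42 and 3.01 CPM in Sh, 2.36, 3.71, 2.30 and 2.24 CPM in Sh + Flx and 3.29, 3.995, 3.79 and 2.37 CPM in Sh + Flx anxious. The 4 Sh libraries lay below all 4 of Gh, by a log2 fold change of -0.46 ± 0.22 (edgeR, unadjusted p = 0.0444, adjusted p = 0.43), and 3.17% of all genes were lower without overlap there. Sh + Flx measured -0.62 ± 0.22 against Gh (unadjusted p = 0.00789, adjusted p = 0.0971), and its highest library lay above the 2 lowest of Gh. In TRAP it measured 0.749, 1.23 and 2.35 CPM in Gh, 1.52, 1.44, 1.01 and 1.27 CPM in Sh, 1.13, 3.42, 1.66 and 2.42 CPM in Sh + Flx and 1.67, 3.68, 1.94 and 2.28 CPM in Sh + Flx anxious. The TRAP libraries of the anxious group lay above those of Sh (0.87 ± 0.46, adjusted p = 0.225), where 8.96% of all genes were higher without overlap, and without Sh TRAP 2 and 3 the difference was 0.78 ± 0.57 (adjusted p = 0.448). TRAP against input gave log2 fold changes of -1.45 ± 0.37 in Gh and -1.18 ± 0.34 in Sh (SE, edgeR, adjusted p = 0.00189 and 0.00585), and of -0.30 ± 0.33 in Sh + Flx and -0.50 ± 0.33 in Sh + Flx anxious (adjusted p = 0.455 and 0.209).

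**Figure D2:**
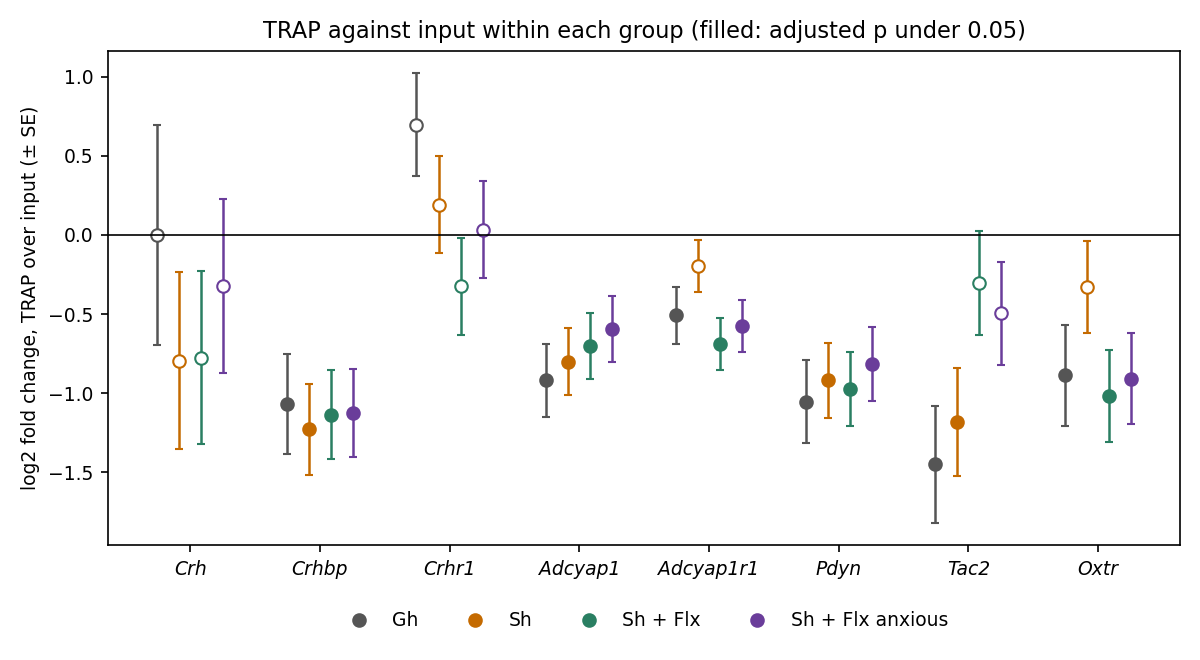
Log2 fold change of TRAP over input within each of the 4 groups for the 8 genes, with SE bars from edgeR; filled points have an adjusted p under 0.05. Crhbp lies between -1.07 and -1.23 in all groups, and Crhr1 is the one gene above 0 in Gh apart from Crh at 0.00.

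Counted over the 8 members, 6 were lower in TRAP than in input in Gh, 4 in Sh, 5 in Sh + Flx and 5 in Sh + Flx anxious, and 0 were higher. Over all 17015 genes tested, 21.9%, 18.8%, 26.9% and 26.8% were lower and 20.3%, 21.3%, 24.9% and 24% were higher in these groups. The median log2 fold change of the members was -0.90 in Gh, -0.80 in Sh, -0.74 in Sh + Flx and -0.59 in Sh + Flx anxious, against -0.06, 0.01, -0.07 and -0.08 over all genes. Crhbp, Adcyap1 and Pdyn were called lower in all 4 groups. In Sh, 6 members were lower without Sh TRAP 2 and 3, with a median of -0.89, Adcyap1r1 and Oxtr being added to the 4. The values in Sh were then -0.71 ± 0.26 for Adcyap1, -0.90 ± 0.29 for Pdyn and -1.03 ± 0.42 for Tac2 (log2, SE, edgeR, adjusted p = 0.0208, 0.011 and 0.0401), and -0.89 ± 0.70 for Crh (adjusted p = 0.297). Without overlap between TRAP and input, 5 members lay lower in Gh (27.1% of all genes did), 4 in Sh (16.7%), 4 in Sh + Flx (27.6%) and 3 in Sh + Flx anxious (26.9%). With replicates 1 and 4, and 2 and 3, summed, 1 member remained past the threshold in Sh + Flx anxious, Crhbp (-1.10 ± 0.40, edgeR, adjusted p = 0.0485). The summed level of 17 interneuron markers was also lower in TRAP, at 1775 to 2272 CPM over the input libraries and 874 to 1727 CPM over the TRAP libraries. Of the 17, 12 were lower in TRAP in Gh, 12 in Sh, 16 in Sh + Flx and 14 in Sh + Flx anxious. The lower levels in TRAP were not particular to interneuron markers, as in Gh the sums of 8 excitatory neuron markers (2946 to 3084 CPM in TRAP, 3707 to 4458 CPM in input), 7 upper layer markers (812 to 873 and 1206 to 1246 CPM), 12 striatal markers (343 to 375 and 681 to 773 CPM) and 8 oligodendrocyte markers (825 to 877 and 1834 to 2090 CPM) were also lower without overlap. The part of these cell types in the result was not tested. The striatal list holds Tac1 and Penk, and the interneuron list Vip, which belong to the same peptide systems as members. In such bulk samples, fewer cells of a type and less RNA per cell cannot be told apart.

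Between groups in input, 0 of the 8 members were called in Sh against Gh, where 0.0829% of 15690 genes were, and 1 member had an unadjusted p under 0.05. In Sh + Flx against Gh 2 were higher (3.1% of all genes were higher), in Sh + Flx anxious against Gh 3 (6.21%), in Sh + Flx against Sh 1 (1.82%) and in Sh + Flx anxious against Sh 3 (3.98%). None of the 8 was called lower in any of the 4. Without adjustment, 3, 4, 2 and 5 members had a p under 0.05 in these comparisons, in the same order. Among them were lower values in Sh + Flx anxious against Sh of Crhr1 (-0.60 ± 0.23, unadjusted p = 0.0126, adjusted p = 0.121) and Crh (-0.82 ± 0.36, unadjusted p = 0.0316, adjusted p = 0.214), and of Crh against Gh (-0.77 ± 0.36, unadjusted p = 0.04, adjusted p = 0.181). Sh + Flx anxious against Sh + Flx called 0 of the 8, with 1 at an unadjusted p under 0.05, and 0.127% of all genes. DESeq2 called as many members as edgeR in each of these 6 comparisons. Without overlap between the libraries, 2 members lay higher in Sh + Flx than in Gh (5.97% of all genes did), 3 in Sh + Flx anxious than in Gh (7.38%), 1 in Sh + Flx than in Sh (5.77%) and 3 in Sh + Flx anxious than in Sh (6.76%). The comparisons share their control libraries, so their values are not independent of each other. The median log2 fold change of the members was 0.12 in Sh + Flx anxious against Gh and -0.01 over all genes, and the members that were not called lay on both sides of 0, from -0.77 for Crh to 0.12 for Pdyn.

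In TRAP, 0 of the 8 members were called in each of the 6 comparisons by edgeR or DESeq2. By edgeR 1 member had an unadjusted p under 0.05 in Sh + Flx against Gh, 2 in Sh + Flx anxious against Gh and 1 in Sh + Flx against Sh, with 0 in the others. Of 16754 genes tested in TRAP, 0% were called in Sh against Gh, 0.00597% in Sh + Flx against Gh, 0.0716% in Sh + Flx anxious against Gh, 6.46% in Sh + Flx against Sh, 10.5% in Sh + Flx anxious against Sh and 0% in Sh + Flx anxious against Sh + Flx. The spread was wider in TRAP, with a median biological coefficient of variation of 0.266 against 0.119 in input. This TRAP fit includes Sh TRAP 2 and 3, and its counts of calls depend on them. Without these libraries, the edgeR calls over all genes against Gh were 195 in Sh + Flx and 376 in Sh + Flx anxious. Against Sh they were 353 and 770. Members called were then 0 in these comparisons, except for 1 (Crhbp) in Sh + Flx anxious against Sh. In the 6 tests of whether a change between groups differed between the fractions, 0 members passed by edgeR or DESeq2, and 0.0235%, 0.0529%, 0.0294%, 2.97%, 7.31% and 0.00588% of 17015 genes were called in the same order of comparisons. By edgeR, an unadjusted p under 0.05 was reached by 2 members in Sh + Flx against Gh and by 1 in Sh + Flx against Sh. A result that passed in input and not in TRAP is therefore not shown to differ between them.

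**Figure D3:**
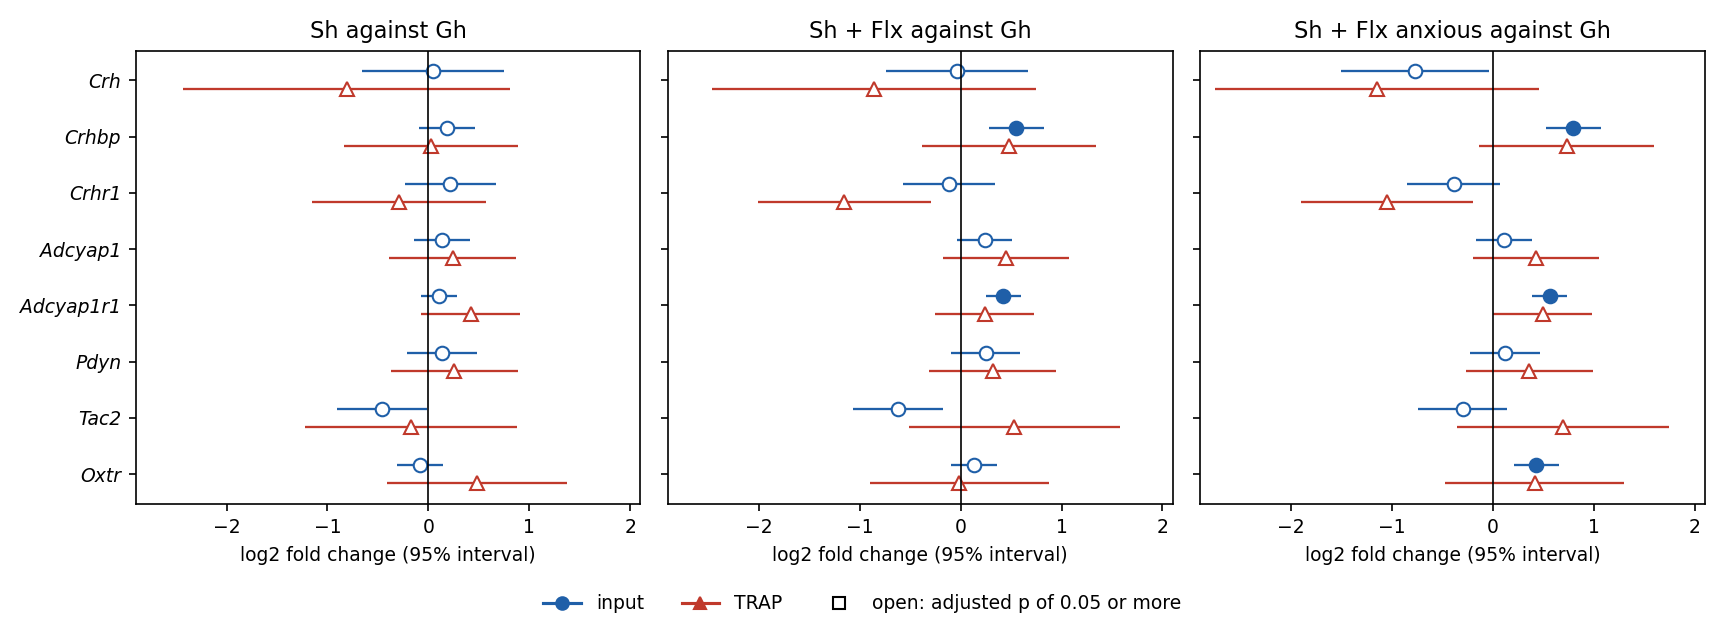
Log2 fold change with its 95% interval of each group against Gh for the 8 genes, in input (circles) and TRAP (triangles), from edgeR; filled points have an adjusted p under 0.05. Filled points are Crhbp and Adcyap1r1 in Sh + Flx and Crhbp, Adcyap1r1 and Oxtr in Sh + Flx anxious, all in input, and the TRAP intervals are wider.

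Marker levels of other cell types moved with the groups in input as well. The summed level of the 17 interneuron markers, whose lowest, median and highest libraries were 1775, 1838 and 1951 CPM in Gh, was 1897, 1934 and 2001 CPM in Sh. It was 2149, 2214 and 2272 CPM in Sh + Flx and 2169, 2214 and 2239 CPM in Sh + Flx anxious. The fluoxetine libraries lay above all vehicle libraries, as they did for Adcyap1r1. Of the 17 markers, 4 were higher in Sh + Flx anxious than in Gh, and these were Gad2 (0.37 ± 0.04), Cnr1 (0.65 ± 0.06), Reln (0.40 ± 0.08) and Npy (0.46 ± 0.10), while Calb2 (-0.63 ± 0.18) and Pvalb (-0.44 ± 0.15) were lower (log2, SE). Of all genes tested, 6.21% were higher in that comparison. The median over the 17 was -0.02, unlike the sum, which the abundant markers weigh more in. The part of interneuron RNA in the rises of Crhbp, Adcyap1r1 and Oxtr was not tested. The summed level of 9 astrocyte markers was 3017 to 4198 CPM in Gh and 3254 to 4865 CPM in Sh + Flx anxious and overlapped between these groups. The sum of 8 choroid plexus markers was 126 to 224 CPM in Gh and 31.4 to 112 CPM in Sh + Flx anxious, without overlap. The sums of 8 oligodendrocyte markers (1834 to 2090 CPM in Gh, 1111 to 1471 CPM in Sh + Flx anxious), 7 upper layer markers (1206 to 1246 and 1014 to 1040 CPM) and 11 meningeal fibroblast markers (111 to 144 and 66.0 to 86.3 CPM) were also lower in the anxious group without overlap. The sum of 12 striatal markers, Tac1 and Penk among them, was 681 to 773 CPM in Gh. It was 783 to 903 CPM in Sh and 793 to 917 CPM in Sh + Flx, both without overlap with Gh. In Sh + Flx anxious it was 626 to 820 CPM, which overlapped with Gh. The part of these cell types in the members' values was not tested.

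**Figure D4:**
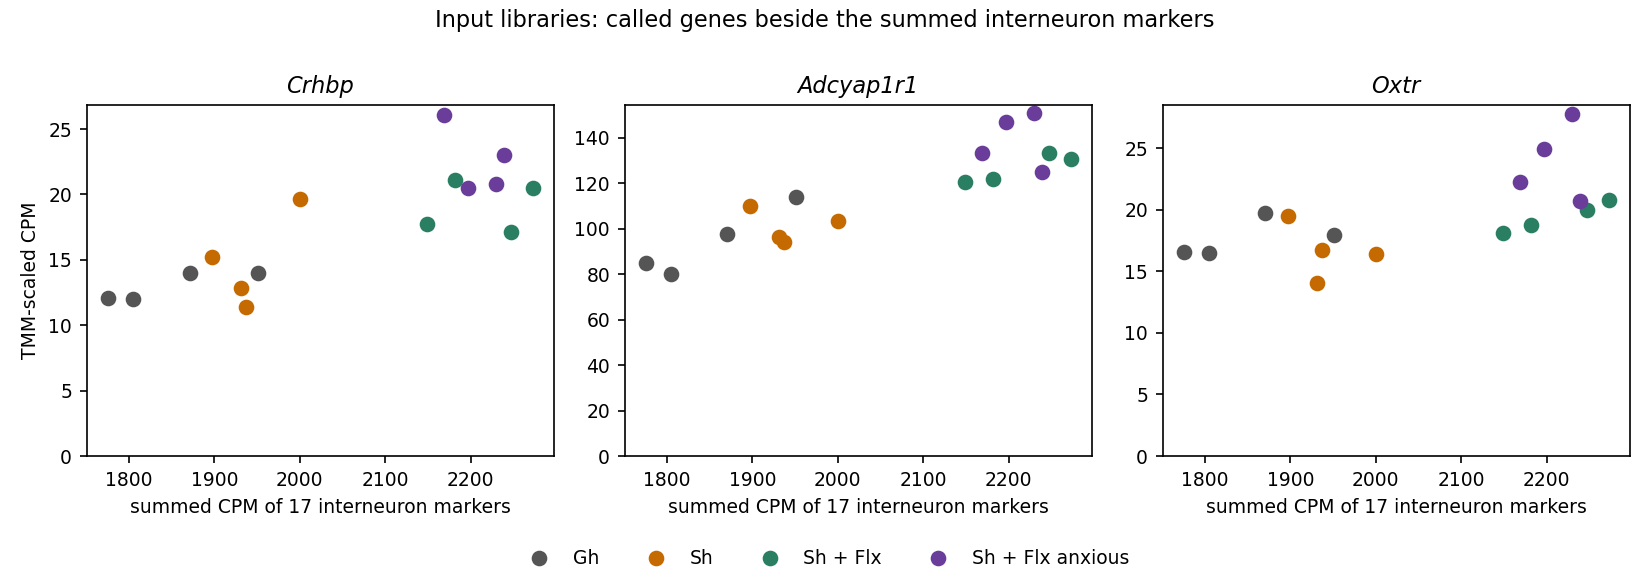
Level of Crhbp, Adcyap1r1 and Oxtr (TMM-scaled CPM, axis from 0) against the summed level of 17 interneuron markers in the 16 input libraries, colored by group. The libraries of both fluoxetine groups lie at 2149 or more on the marker axis and those of Gh and Sh at 2001 or less, and Oxtr is highest in Sh + Flx anxious at a marker level that Sh + Flx shares.

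Of 25 other genes of the same 5 systems, 18 had enough counts for a test in input, and 3 were higher and 1 was lower in Sh + Flx anxious than in Gh, with a median of 0.08. Over all 15690 genes tested in input, 975 were higher and 827 were lower in that comparison. The delta opioid receptor Oprd1 was higher by 0.76 ± 0.09 (log2, SE, edgeR, adjusted p = 1.13e-06). It went from a mean of 19.4 ± 2.31 CPM (SD, n = 4) in Gh to 23.2 ± 1.04 in Sh, 27.6 ± 1.59 in Sh + Flx and 32.8 ± 2.16 CPM in Sh + Flx anxious. The VPAC1 receptor Vipr1, which PACAP and VIP share, was higher by 0.75 ± 0.15 (adjusted p = 0.00109), and the VPAC2 receptor Vipr2 was lower by a log2 fold change of -1.32 ± 0.43 (adjusted p = 0.0451). Vipr2 was scarce, at 0.513 to 1.98 CPM in Gh input and 0.252 to 0.759 CPM in Sh + Flx anxious input, and these ranges overlapped. Its TRAP means went the other way, with 0.474 CPM in Gh and 1.72 CPM in Sh + Flx anxious. Lnpep, the aminopeptidase that cleaves oxytocin and vasopressin, was higher by 0.22 ± 0.06 (adjusted p = 0.0197). None of the 18 was called in input in Sh against Gh, and none in Sh + Flx anxious against Sh + Flx. In TRAP, 1 of 19 such genes tested was higher in Sh + Flx than in Sh and 1 in Sh + Flx anxious than in Sh. Over all 16754 genes tested in TRAP, 444 and 728 were higher in these comparisons. None of the 19 was called in the other TRAP comparisons between groups.

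Crhr2, the second CRF receptor, had a mean of 0.282 ± 0.0863 CPM (SD, n = 4) in Gh input, and the CRF relatives Ucn and Ucn2 had 0.0974 CPM or less in every input library, Ucn2 being at 0 in all 16. Oxt, the oxytocin precursor, had 0.224 ± 0.0779 CPM in Gh input and 2.91 ± 1.33 CPM in Gh TRAP (SD, n = 4 and 3), and it was higher in TRAP by 3.65 ± 0.77 (log2, edgeR, adjusted p = 0.000265). It was higher in TRAP also in Sh + Flx and Sh + Flx anxious, by 2.94 ± 0.79 and 2.80 ± 0.75 (adjusted p = 0.00237 and 0.00243). In Sh, Oxt had 0.247 CPM in TRAP (0 to 0.39) and 0.131 CPM in input, and the log2 fold change of 0.93 ± 0.81 did not pass (adjusted p = 0.383). Pomc, the precursor of the melanocortins and of beta-endorphin, was lower in Sh + Flx anxious than in Sh input by a log2 fold change of -3.78 ± 0.78 (adjusted p = 0.00184). Its 4 Sh input libraries ran from 0.173 to 8.45 CPM, and the summed level of 8 pituitary markers was 162 and 161 CPM in Sh input 1 and 4 and 1.71 and 1.73 CPM in Sh input 2 and 3. The part of pituitary RNA in the Pomc result was not tested. Crhr1, which the pituitary also expresses, was at 4.202 and 4.28 CPM in Sh input 1 and 4 and 2.91 and 4.06 CPM in 2 and 3.

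Of 13 genes that make, sort and release peptides, 6 were higher and 3 were lower in Sh + Flx anxious than in Gh input, against 3 and 1 in Sh + Flx, and 0 in Sh. Over all 15690 genes, 975 were higher and 827 lower in Sh + Flx anxious, and 486 and 347 in Sh + Flx. The granin Chga rose by 1.07 ± 0.09 (log2, SE, edgeR, adjusted p = 3.63e-09), from 18.8 ± 1.09 CPM (SD, n = 4) in Gh to 39.4 ± 3.11 CPM in Sh + Flx anxious, with 18.9 ± 1.83 CPM in Sh and 29.6 ± 2.19 CPM in Sh + Flx. Chgb rose by 0.72 ± 0.07 and Vgf by 0.52 ± 0.12, while Cadps2, a factor for dense core vesicle release, fell by 0.54 on the log2 scale. Of 12 other cortical neuropeptides, Npy and Cck were higher (0.46 ± 0.10 and 0.29 ± 0.07) and Cartpt was lower (-1.56 ± 0.21). In Gh, 5 of these 12 peptides were lower in TRAP than in input, with Npy at -1.73 ± 0.25, Vip at -1.42 ± 0.27, Sst at -1.26 ± 0.18 and Tac1 at -1.23 ± 0.25, and 0 were higher. Of all genes tested there, 21.9% were lower and 20.3% were higher.

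**Figure D5:**
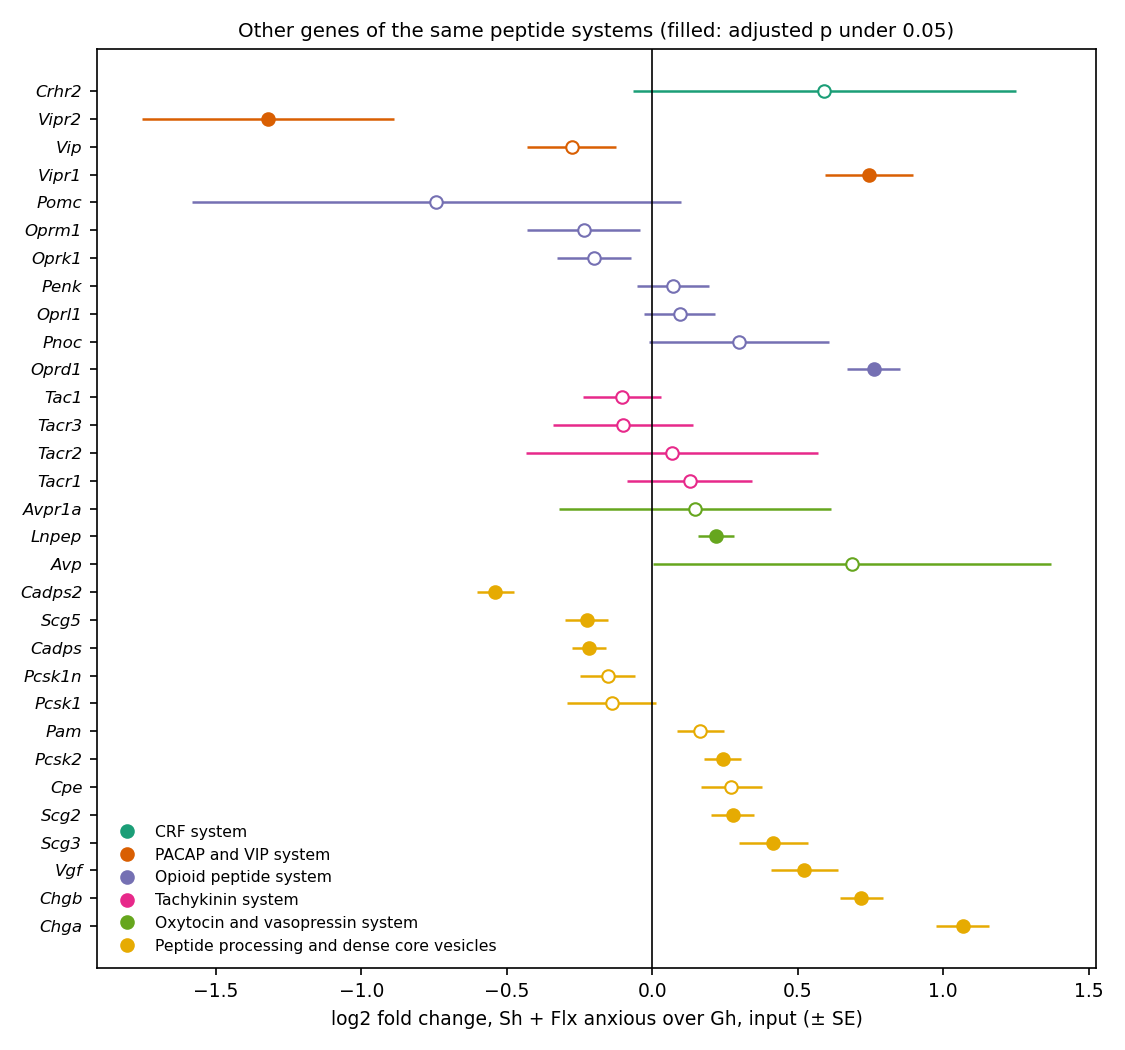
Log2 fold change of Sh + Flx anxious over Gh in input (± SE, edgeR) for the other genes of the 5 peptide systems and for 13 genes of peptide processing and dense core vesicles, colored by list; filled points have an adjusted p under 0.05. Chga (1.07), Oprd1 (0.76), Vipr1 (0.75) and Chgb (0.72) lie highest among the filled points, and Vipr2 (-1.32) lowest. Vipr2 was at 1.98 CPM or less in both groups, with overlapping libraries.

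The genes whose pattern over the 31 libraries was most like that of a member were found by the root mean square difference of centred log2 CPM among 13102 genes. For Adcyap1r1 they were Ncan (0.121) and Dclk3 (0.156), and for Adcyap1 Impact (0.201) and Ppp2r2b (0.223). For Pdyn the nearest was Tmem255a (0.243), and for Oxtr they were Kcnd3 (0.259) and Slc38a9 (0.266). For Crhr1 they were Zfp59 (0.28) and Sidt1 (0.301), and for Crhbp Trim2 (0.325) and Syn2 (0.331). Tac2 was nearest to Snhg12 (0.33) and Ttc9c (0.337), and Crh to Lmo2 (0.434) and Pcdhb12 (0.444). The root mean square of the member itself was 0.386 for Adcyap1r1, 0.441 for Adcyap1, 0.549 for Pdyn and 0.589 for Oxtr. It was 0.435 for Crhr1, 0.735 for Crhbp, 0.538 for Tac2 and 0.570 for Crh. A difference near the member's own value, as for Crh, marks a weak likeness. No member was among the 2 nearest genes of another.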

How the data were processed

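RNA-seq libraries from whole cortex (input) and from TRAP of S100a10 bacTRAP mice were analysed, 16 of each. The authors aligned reads with TopHat2 2.0.11 to mm10 (GRCm38) and deposited raw read counts per gene symbol, and the submitters' processing notes also name Cufflinks 2.2.1, edgeR 3.8.6 and DESeq2. Which program counted the reads, and with which strand setting, was not given in the sources used here, and the kit does not mark strand. Deposited tables of mean FPKM per group, fold changes and p-values were not used. The 5 closing lines of each file, which name no gene, entered no library size or test, and held 25.2 to 58.6% of reads outside features in TRAP and 45.1 to 55.2% in input. The members and lists were chosen with earlier results of these data known.

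Counts were filtered with filterByExpr, scaled by TMM and tested by edgeR 4.0.16 (R 4.3.3) quasi-likelihood fits of all groups: TRAP alone (15 samples, 16754 genes), input alone (16 samples, 15690 genes) and both (31 samples, 17015 genes) for TRAP against input and for the difference of changes. Adjusted p is Benjamini-Hochberg over all genes, with a threshold of 0.05, and SE is the log2 fold change over the square root of F. CPM per kb used RefSeq exon lengths, matched for 23894 of 24062 genes. The test was run on simulated counts of independent libraries with a common spread for all genes. That run held no outlying or closely similar libraries, so it cannot check the p-values where such libraries occur. Named genes were all 8 members, the called genes of smallest p in each other list (at most 4 a comparison) and the 2 genes nearest each member, among genes with a mean of at least 1 CPM, of which 1 is not reported here. Alternatives were DESeq2 1.42.0, its size factors in edgeR, no filter, Gh TRAP 2 and 3 kept separate, a replicate block, each library left out, Sh TRAP 2 and 3 left out and, chosen after seeing the data, replicates 1 and 4, and 2 and 3, summed.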

Additional observations from a re-analysis of the deposited data

Results flagged for a closer look

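In 56 groups of 4 libraries, the gap between an extreme library and its nearest neighbour was compared with the group's range. Of these groups, 3 had a library that stood out, which is near the share of about 1 in 20 that chance alone gives. Crhr1 in Sh input 2 was 2.91 CPM, below the other Sh input libraries at 4.06 to 4.28 CPM. Adcyap1 in Sh + Flx anxious TRAP 4 was 12.1 CPM, above the other libraries of that group at 5.91 to 6.33 CPM. Tac2 in Sh + Flx input 2 was 3.71 CPM, above the others at 2.24 to 2.36 CPM.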

How the results depend on the processing

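Of the 47 results on single members, 47 kept their direction and call under DESeq2 and 47 under its size factors in edgeR. Summing replicates 1 and 4, and 2 and 3, which leaves 2 samples a group, took the members called in input from 2 to 0 in Sh + Flx against Gh, from 1 to 0 in Sh + Flx against Sh and from 3 to 1 in Sh + Flx anxious against Sh, and in TRAP against input in Sh + Flx anxious from 5 to 1. It ended the call of 13 results on single members. Without Sh TRAP 2 and 3, Sh + Flx anxious against Sh in TRAP called 1 member in place of 0. Over the refits that leave out 1 library, 348 values for single members kept their direction and call, 17 lost the call, 2 gained one and 9 turned their sign, and there were 0 to 1 members called in Sh + Flx against Sh in input.

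The sign of Crh in TRAP against input in Gh, at 0.00, turned to -0.0061 with no filter, -0.61 with replicates summed and -0.17 with Gh TRAP 2 and 3 separate, and leaving out 1 library gave -1.21 to 0.48. Crhr1 in Sh became -0.56 without Sh TRAP 2 and 3, and -0.40 to 0.39 on leaving out 1 library, and in Sh + Flx anxious -0.10 to 0.18. The causes were not tested.

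Replicate numbers did not pair the samples. Correlations of deviations between groups ran from -0.131 to 0.111 in TRAP and from -0.051 to 0.046 in input. Between TRAP and input libraries of the same group and number they ran from -0.026 to 0.036. With a replicate block, the 11 input results and 35 others kept their call, and Crh in TRAP against input in Gh became -0.30, or -0.56 with the block by pool.

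Over all genes, DESeq2 called more than edgeR between groups in TRAP, at 204 against 0 in Sh against Gh, 82 against 1 in Sh + Flx against Gh, 130 against 12 in Sh + Flx anxious against Gh, 2395 against 1083 in Sh + Flx against Sh, 2779 against 1757 in Sh + Flx anxious against Sh and 9 against 0 between the fluoxetine groups. In input it called 151 against 13 in Sh against Gh and 92 against 20 between the fluoxetine groups, and for the difference of changes 61 against 4, 28 against 9, 55 against 5, 1069 against 506 and 3 against 1 (all but Sh + Flx anxious against Sh, in the order above). Summed replicates took the counts in TRAP to 0 in all comparisons, those in input to 0, 148, 685, 59, 381 and 1 from 13, 833, 1802, 411, 1076 and 20, TRAP against input in Sh to 4206 from 6828, and the differences of changes to 0. Without Sh TRAP 2 and 3 the TRAP counts were 6, 195, 376, 353 and 770 in the first 5 comparisons and the differences 63, 107, 348, 190, 515 and 2. With Gh TRAP 2 and 3 separate, the TRAP counts against Gh were 2, 24 and 68, or 14 and 37 in the fluoxetine groups with the replicate block, and the difference of Sh + Flx anxious against Gh was 35, or 24 with the block. The replicate block gave 4 in Sh against Gh in input. No filter gave 42 and 33 in input (Sh against Gh, fluoxetine groups), 3 in TRAP (Sh + Flx against Gh) and 0 for the difference in Sh against Gh. Low counts limit Crh and Tac2, whose intervals are the widest of the 8 in TRAP.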
